A study of Mus musculus with 8 samples.

Results

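The 10 genes described here belong to the Notch pathway: the receptors *Notch1*, *Notch2* and *Notch4*, the ligands *Dll4* and *Jag1*, and 5 genes that Notch signalling switches on, *Hey1*, *Hey2*, *Heyl*, *Hes1* and *Nrarp*. They were chosen by name, and all 10 were found by Ensembl identifier among the 49315 genes of each count table. The data are bulk RNA-seq of whole mouse hearts at embryonic day 9.5, in 4 wild-type (WT) libraries and 4 libraries from embryos homozygous for Tbx20EH1Mut, each made from 3 pooled hearts. Tbx20EH1Mut is a germline substitution, made by CRISPR/Cas9, of a phenylalanine and a serine by leucine and isoleucine in the EH1 motif of Tbx20, a T-box transcription factor. It disrupts the binding of Tbx20 to the Groucho-type corepressors of the TLE family. The allele is present in every cell of the embryo, the wild type is described as C57/Bl6, and both sexes were used. The question asked of these genes is whether receptors and ligands moved with the known target genes when Tbx20 could no longer bind TLE. Whether Notch set the levels of the target genes in these hearts was not tested.

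Notch receptors and their ligands are membrane proteins of neighbouring cells. Ligand binding lets ADAM proteases and the gamma-secretase complex cut the receptor, and the freed intracellular domain enters the nucleus, where it joins the DNA-binding protein Rbpj and a Mastermind coactivator to switch on *Hes* and *Hey* genes. Hes and Hey proteins are basic helix-loop-helix repressors, and Hes proteins recruit TLE corepressors through a short C-terminal motif, while Nrarp is a small protein that dampens the signal. In the early heart, *Notch1*, *Notch4* and *Dll4* are known for endothelium and endocardium, *Jag1* is also made by myocardium and the outflow tract, *Hey1* marks atrial and *Hey2* ventricular myocardium, and *Hes1* is widely made, including in progenitors of the second heart field.

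The stretches upstream of 3 of these genes are shown because they contrast a receptor and a ligand that rose with a repressor of the same pathway that was not called. Each runs from 250 to 31 bases before the RefSeq start of the gene (GRCm38.p6), is written 5′ to 3′ on the strand of the gene and covers 220 bases. Capitals mark a match to one of the 2 motifs searched on both strands, TGGGAA, the core bound by Rbpj, and GTGTGA, a half-site bound by T-box factors. These motifs do not overlap each other in the windows printed.
Notch4 (chr17:34564045-34564264, plus strand): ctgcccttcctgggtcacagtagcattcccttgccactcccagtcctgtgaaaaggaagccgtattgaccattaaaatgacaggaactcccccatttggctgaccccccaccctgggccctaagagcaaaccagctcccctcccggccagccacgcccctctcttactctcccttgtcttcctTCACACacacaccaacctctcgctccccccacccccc
Dll4 (chr2:119325534-119325753, plus strand): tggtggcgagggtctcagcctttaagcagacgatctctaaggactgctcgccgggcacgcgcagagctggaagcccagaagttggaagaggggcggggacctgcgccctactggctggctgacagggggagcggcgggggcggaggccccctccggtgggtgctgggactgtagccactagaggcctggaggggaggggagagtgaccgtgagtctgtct
Hey2 (chr10:30842814-30843033, minus strand): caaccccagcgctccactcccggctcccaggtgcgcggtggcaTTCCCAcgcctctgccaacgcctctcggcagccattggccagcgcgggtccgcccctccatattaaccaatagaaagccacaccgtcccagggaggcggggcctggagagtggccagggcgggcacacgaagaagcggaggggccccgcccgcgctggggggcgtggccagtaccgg
The *Notch4* window holds GTGTGA on the opposite strand, 67 to 62 bases before the start, and the *Hey2* window holds TGGGAA on the opposite strand, 207 to 202 bases before the start. The *Dll4* window holds neither. Of 32851 RefSeq windows of this length, 19.4% hold TGGGAA and 11.0% hold GTGTGA. Entries were matched for 7 of the 10 genes, and the windows of *Notch1*, *Notch2*, *Jag1* and *Nrarp* hold neither motif. *Hey1*, *Heyl* and *Hes1* were not matched.

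Between 33359322 and 49523086 reads per WT library and between 36250675 and 38357025 per Tbx20EH1Mut library were counted on genes. Levels are CPM, counts relative to the library size scaled by TMM, as mean ± SD over 4 libraries of a genotype, and genes were called where the adjusted p was 0.05 or less and the absolute log2 fold change above 0.5. Adjusted p-values come from the quasi-likelihood test of edgeR, with Benjamini-Hochberg adjustment over the 17163 genes tested. Called genes made up 24.6% of those tested, with 12.5% higher and 12.1% lower in Tbx20EH1Mut hearts, and 29.3% passed the adjusted p alone, so a large part of the measured genes differed between the genotypes. With upper-quartile in place of TMM scaling, 2516 genes were higher and 1566 lower, against 2148 and 2070. The levels of the 4 libraries were also compared as a set with an exact two-sided permutation test, whose smallest p with 4 against 4 is 0.0286. WT replicate 2 stood apart from the others. Its genes with at least 8000 exon bases had a median log2 deviation of 0.32 from the mean of all libraries, against -0.09 to 0.0046 elsewhere. It was also the highest WT library for several foregut epithelium markers, given below. The labels do not say whether libraries came from separate litters, so p-values measure the spread between these pools. The substituted codons cannot be seen in these counts, and genotypes rest on the labels.

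Of the 10 Notch genes, 4 were called higher and 0 lower in Tbx20EH1Mut hearts, against 12.5% and 12.1% of all genes tested. The 4 were the receptor *Notch4*, the ligand *Dll4* and the repressors *Hey1* and *Hes1*. *Hey1* and *Hes1* rose most, 1.96-fold and 2.13-fold in mean CPM, whereas *Notch4* and *Dll4* rose 1.64-fold and 1.55-fold. The median log2 fold change over the 10 genes was -0.01, against 0.0048 over all genes tested. At the same time *Notch1* had a lower mean, by 1.81-fold, without passing the test. In 4 genes every Tbx20EH1Mut library lay above every WT library, in 1 gene (*Heyl*) every one lay below, and the same was true of 14.7% and 15.7% of all genes tested. The plot of levels by library shows this split, with *Notch4*, *Dll4*, *Hey1* and *Hes1* apart between the genotypes and most of the others mixed.

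**Figure D1:**
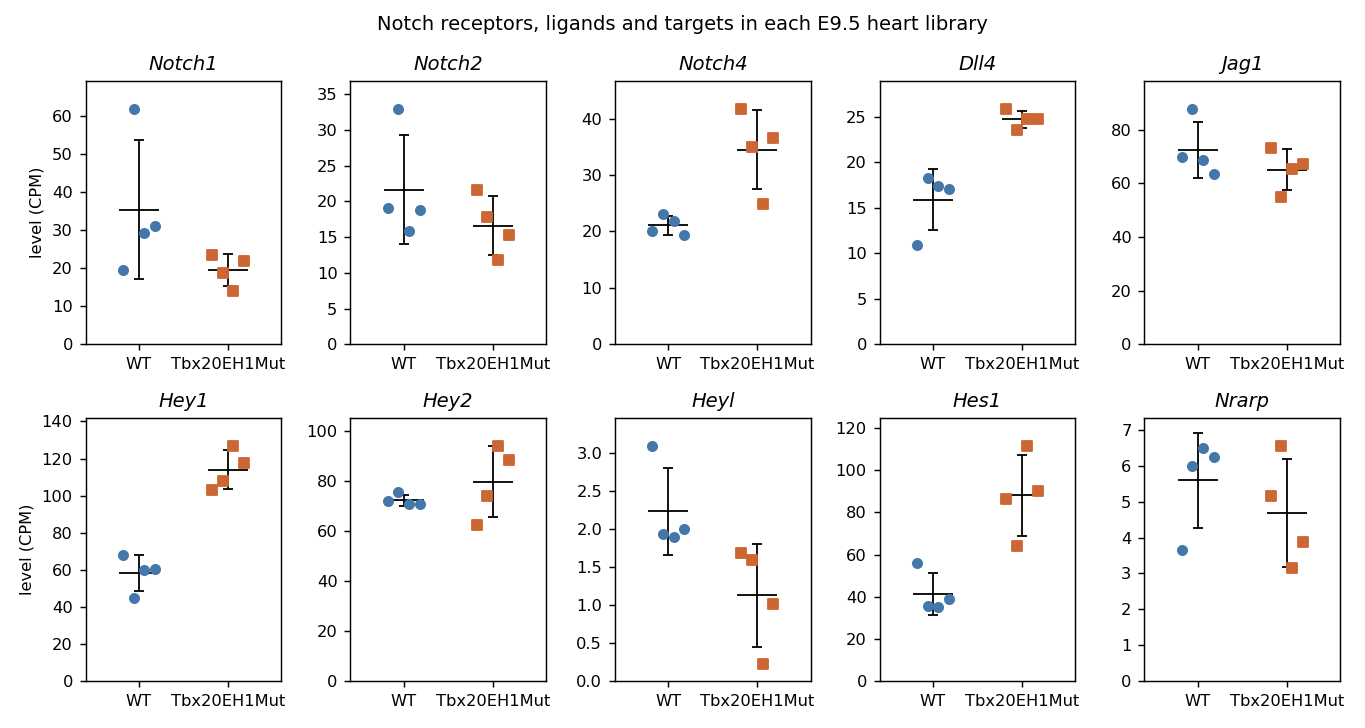
Levels of the 10 Notch genes in CPM (vertical axes, each from 0) in 4 WT libraries (circles) and 4 Tbx20EH1Mut libraries (squares), with the mean and SD of each genotype as a bar and whiskers. Squares lie above all circles for Notch4, Dll4, Hey1 and Hes1 and below all circles for Heyl, and the WT replicate 2 circle lies far above the others for Notch1, at 61.7 CPM.

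*Notch1* (ENSMUSG00000026923, chr2:26457903-26516663 of GRCm38, minus strand) encodes the main Notch receptor of the endocardium. Its level was 19.5, 61.7, 29.1 and 30.98 CPM in WT replicates 1 to 4 and 23.5, 18.8, 14.1 and 21.8 CPM in Tbx20EH1Mut replicates 1 to 4. WT replicate 2 was high, WT replicate 1 was as low as the Tbx20EH1Mut libraries, and the genotypes overlapped (35.3 ± 18.3 against 19.6 ± 4.15 CPM, exact two-sided permutation test, p = 0.0857). The fit gave a log2 fold change of -0.85 with SE 0.314 (edgeR, adjusted p = 0.0642). *Notch1* has 14232 exon bases, so it is among the long genes that were high in WT replicate 2, and without that library the log2 fold change became -0.43 (edgeR, adjusted p = 0.162). The adjusted p fell to 0.0150 without WT replicate 1, to 0.0221 with DESeq2 and to 0.0390 with an offset on exon length (log2 fold change -0.74). Whether *Notch1* was called lower therefore depended on the fit. In simulated data 23.1% of DESeq2 calls were of genes that were not changed, against 3.75% of edgeR calls. Its exons overlap 2 genes on the opposite strand, *0610009E02Rik* over 1068 bases and *Gm13568* over 414 bases, which had 199 and 45 counts over all libraries against 9441 for *Notch1*.

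*Notch2* (ENSMUSG00000027878, chr3:98013527-98150361, plus strand), a receptor with broad expression in mesenchyme and smooth muscle, was at 19.0, 32.9, 15.9 and 18.7 CPM in WT and 21.6, 17.8, 11.9 and 15.2 CPM in Tbx20EH1Mut libraries. The ranges overlapped, WT replicate 2 was again the highest, and the log2 fold change was -0.38 with SE 0.249, which did not pass (edgeR, adjusted p = 0.268). *Notch2* is also long, with 10782 exon bases, and without WT replicate 2 its log2 fold change became -0.09 (edgeR, adjusted p = 0.760). *Notch4* (ENSMUSG00000015468, chr17:34564268-34588503, plus strand), a receptor made mainly by endothelial cells, was called higher. Its level was 20.03, 23.1, 21.9 and 19.4 CPM in WT and 41.7, 35.0, 24.8 and 36.6 CPM in Tbx20EH1Mut libraries. Every Tbx20EH1Mut library was above every WT library, Tbx20EH1Mut replicate 3 by the least, and the fit gave a log2 fold change of 0.71 with SE 0.157 (edgeR, adjusted p = 0.00917). The call held in each of the 8 fits that left out 1 library, with log2 fold changes from 0.62 to 0.85. *Notch4* was the one receptor of the 3 that was called. Relative to *Notch1* in the same library the log2 ratio of *Notch4* was -0.62 ± 0.61 in WT and 0.82 ± 0.062 in Tbx20EH1Mut hearts, with no overlap, and 20.4% of all other genes tested also separated upwards on this ratio.

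*Dll4* (ENSMUSG00000027314, chr2:119325784-119335962, plus strand) encodes the Delta-type ligand of arterial endothelium and endocardium. It was at 10.9, 18.3, 17.4 and 17.04 CPM in WT replicates 1 to 4, and the Tbx20EH1Mut libraries lay close together at 25.8, 23.5, 24.8 and 24.8 CPM. All of the latter were above all of the former (15.9 ± 3.40 against 24.7 ± 0.950 CPM), and the fit gave a log2 fold change of 0.63 with SE 0.161 (edgeR, adjusted p = 0.0166). WT replicate 1 was the lowest by far, and without it the log2 fold change became 0.49 (edgeR, adjusted p = 0.00858), just under the fold change threshold. The exons of *Dll4* share 214 bases with *Gm14207* on the opposite strand, a gene with 1089 counts over the 8 libraries against 6520 for *Dll4*. *Gm14207* also rose, from 1.01 to 6.31 CPM (edgeR log2 fold change 2.64 at an adjusted p of 4.63e-04). The strand setting of the counting is not given in the sources used here, and the part of *Gm14207* in the value for *Dll4* was not tested.

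*Jag1* (ENSMUSG00000027276, chr2:137081456-137116644, minus strand), the Jagged-type ligand, was not called. Its level was 69.8, 87.6, 68.7 and 63.6 CPM in WT and 73.0, 55.0, 65.4 and 67.1 CPM in Tbx20EH1Mut libraries. The ranges overlapped in part, and the fit gave a log2 fold change of -0.15 with SE 0.131 (edgeR, adjusted p = 0.395). Per length of message *Jag1* was above *Dll4* in each of the 8 libraries.

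*Hey1* (ENSMUSG00000040289, chr3:8663359-8667256, minus strand) encodes a repressor known for keeping atrioventricular canal genes out of the chambers. Its level was 68.0, 44.8, 59.9 and 60.2 CPM in WT and 103.0, 108.0, 127 and 117.5 CPM in Tbx20EH1Mut libraries. The lowest Tbx20EH1Mut library was well above the highest WT library, and the fit gave a log2 fold change of 0.97 with SE 0.139 (edgeR, adjusted p = 0.00125). *Hes1* (ENSMUSG00000022528, chr16:30064384-30067796, plus strand), the most widely used Notch target, was at 56.0, 35.5, 35.0 and 39.0 CPM in WT and 86.4, 64.3, 112 and 90.3 CPM in Tbx20EH1Mut libraries. WT replicate 1 was the highest WT library and Tbx20EH1Mut replicate 2 the lowest of its genotype, and they still did not meet. The log2 fold change of *Hes1* was 1.09 (standard error 0.197, edgeR, adjusted p = 0.00365). Both genes kept their call in each of the 8 fits without 1 library, with log2 fold changes from 0.87 to 1.05 for *Hey1* and from 0.96 to 1.27 for *Hes1*.

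*Hey2* (ENSMUSG00000019789, chr10:30832359-30842801, minus strand), the ventricular paralog of *Hey1*, was nearly constant in WT libraries at 72.0, 75.5, 70.8 and 70.7 CPM. The Tbx20EH1Mut libraries spread to both sides, at 62.4, 74.1, 94.0 and 88.3 CPM, and the ranges overlapped. The log2 fold change was 0.14 with SE 0.132, which did not pass (edgeR, adjusted p = 0.440). *Heyl* (ENSMUSG00000032744, chr4:123233556-123249875, plus strand), a repressor known from smooth muscle and pericytes, was the scarcest of the 10 genes. It had 102, 95, 95 and 92 counts in WT libraries and 65, 60, 7 and 38 counts in Tbx20EH1Mut libraries, or 2.23 ± 0.577 against 1.13 ± 0.675 CPM. Each Tbx20EH1Mut library was below each WT library (exact two-sided permutation test, p = 0.0286), but the fit did not call it (edgeR log2 fold change -0.98, SE 0.495, adjusted p = 0.158).

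*Nrarp* (ENSMUSG00000078202, chr2:25180758-25183339, plus strand), the feedback inhibitor, was also low. Its level was 3.64, 5.99, 6.49 and 6.26 CPM in WT and 5.15, 6.56, 3.16 and 3.87 CPM in Tbx20EH1Mut libraries. The ranges overlapped and the log2 fold change was -0.26 with SE 0.272, which did not pass (edgeR, adjusted p = 0.494). Of its exon bases 79.4% overlap *Gm38287* on the opposite strand, which had 0 counts in all 8 libraries. Of the 5 target genes, 2 were therefore called higher and 3 were not called, against 1 of 3 receptors and 1 of 2 ligands. Over all genes tested 12.5% were called higher, and a difference between these roles was not tested.

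Receptors and ligands were then set beside the target repressors as groups, as a description with no test over the groups. The mean log2 CPM of the 3 receptors was 4.60 ± 0.39 in WT and 4.46 ± 0.33 in Tbx20EH1Mut libraries, that of both ligands 5.07 ± 0.22 and 5.32 ± 0.11, and that of the 5 targets 4.19 ± 0.096 and 4.32 ± 0.22. All 3 overlapped between the genotypes. The summed level of the targets, to which the more abundant *Hey1*, *Hey2* and *Hes1* contribute most, gave another picture. It lay between 163.7 and 202.7 CPM in WT and between 254.5 and 335.8 CPM in Tbx20EH1Mut libraries. The summed level of the receptors did not separate, at 58.6 to 118 CPM in WT and 50.7 to 86.8 CPM in Tbx20EH1Mut libraries. *Heyl* and *Nrarp* weigh as much as *Hes1* in a mean of logs and little in a sum.

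Ratios within a library do not depend on the scaling between libraries. The log2 ratio of *Hey1* to *Notch1* was 0.83 ± 0.94 in WT and 2.56 ± 0.44 in Tbx20EH1Mut hearts, and that of *Hes1* to *Notch1* was 0.33 ± 0.95 and 2.17 ± 0.56, both without overlap. The log2 ratio of *Dll4* to *Notch1* went from -1.05 ± 0.47 to 0.36 ± 0.31, also without overlap. For *Jag1*, *Hey2*, *Heyl*, *Nrarp* and *Notch2* the ratios to *Notch1* overlapped. Over all other genes tested, the ratio to *Notch1* was higher without overlap in 20.4% and lower in 0.618%, so separation upwards was common on this scale. The level of *Notch1* in WT replicate 2 enters each of these ratios, and the log2 ratios of *Hey1* and *Hes1* were lowest there (-0.46 and -0.80).

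Per length of message, *Hes1*, *Hey1* and *Hey2* had the highest levels of the 10 genes. In FPKM, which is CPM divided by the exon length in kilobases, the order in WT hearts was *Hes1* (20.3 ± 4.86), *Hey1* (17.8 ± 2.97), *Hey2* (15.7 ± 0.488), *Jag1* (12.4 ± 1.80), *Dll4* (4.13 ± 0.882), *Notch4* (2.62 ± 0.210), *Notch1* (2.48 ± 1.28), *Nrarp* (2.17 ± 0.511), *Notch2* (2.01 ± 0.710) and *Heyl* (0.437 ± 0.113). The ranges of neighbours in that order were apart between *Hey2* and *Jag1*, between *Jag1* and *Dll4* and between *Notch2* and *Heyl*, and overlapped elsewhere. In Tbx20EH1Mut hearts *Hes1* (43.3 ± 9.52 FPKM) and *Hey1* (34.9 ± 3.23 FPKM) overlapped each other and both lay apart from *Hey2* (17.4 ± 3.11 FPKM), whereas in WT hearts *Hey1* overlapped *Hey2*. *Dll4* (6.42 ± 0.247 FPKM) and *Notch4* (4.28 ± 0.877 FPKM) lay apart from their neighbours on both sides, and *Notch1* (1.37 ± 0.292 FPKM) stood behind *Nrarp* and *Notch2*, each overlapping the next. The plot of levels per length shows these gaps.

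**Figure D2:**
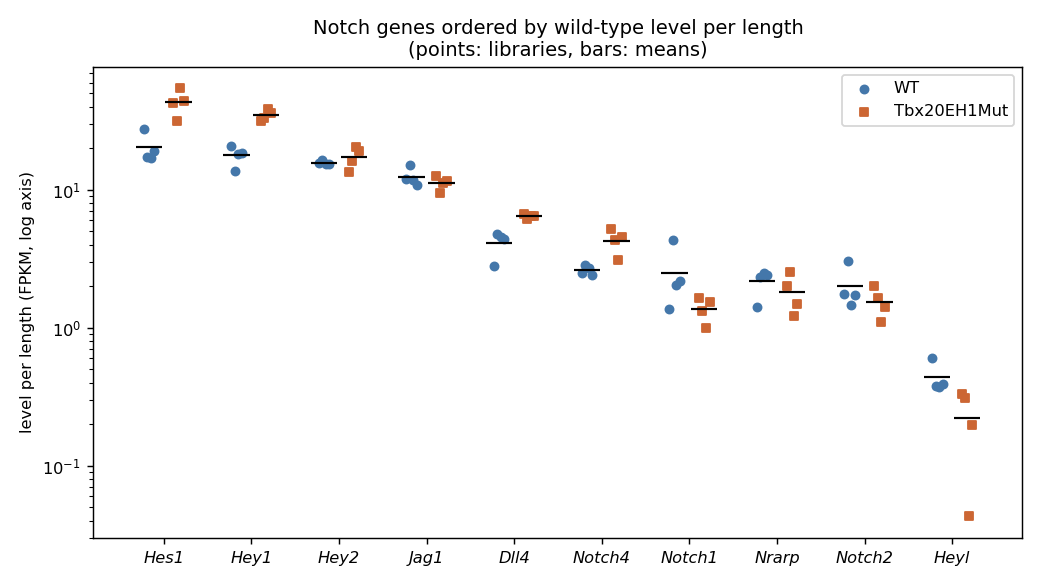
Levels of the 10 Notch genes per length (vertical axis, FPKM, log scale), ordered by the WT mean, with 1 point per library (circles WT, squares Tbx20EH1Mut) and a bar at the mean of each genotype. Hes1 and Hey1 stand highest in both genotypes, at 43.3 and 34.9 FPKM in Tbx20EH1Mut hearts, and Heyl stands lowest.

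A heart library mixes endocardium, myocardium and other cells, and in bulk RNA fewer cells of a type and less RNA per cell cannot be told apart. Some endothelial marker genes moved with the genotype. Of 14 fixed markers 7 were called higher in Tbx20EH1Mut hearts and 0 lower, against 12.5% and 12.1% of all genes tested. Without 1 library the count called higher was 5 to 7, with 5 without WT replicate 2 or Tbx20EH1Mut replicate 4. The count called lower was 1 without WT replicate 1. None was at 0, and their summed level was 1037 to 1222 CPM in WT and 1338 to 1465 CPM in Tbx20EH1Mut libraries. *Pecam1*, *Kdr*, *Flt1*, *Emcn*, *Esam*, *Cldn5* and *Egfl7* rose, while *Cdh5*, *Tek*, *Tie1*, *Eng*, *Erg*, *Nfatc1* and *Npr3* were not called. Of the latter, *Eng* lay lower in every Tbx20EH1Mut library (175.6 ± 10.4 against 158.8 ± 5.57 CPM). *Cdh5*, *Tek* and *Nfatc1* had negative log2 fold changes (-0.13, -0.25 and -0.42), and *Tie1*, *Erg* and *Npr3* positive ones. Of 8 cardiomyocyte markers 0 were called higher and 1 (*Actn2*) lower, a count that was 0 in 7 of the 8 fits without 1 library (1 without WT replicate 1), and their summed level overlapped, at 21830 to 31760 CPM in WT and 22920 to 35840 CPM in Tbx20EH1Mut libraries.

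Counted per 1000 endothelial marker counts, *Hey1* was still higher without overlap, at 51.6 ± 11.8 in WT and 81.7 ± 6.59 in Tbx20EH1Mut hearts. *Dll4* was higher as well, at 13.8 ± 2.24 against 17.8 ± 0.796. *Hes1* (36.8 ± 11.6 against 63.1 ± 13.1) and *Notch4* (18.5 ± 1.05 against 24.8 ± 5.24) overlapped on this scale, *Notch4* through Tbx20EH1Mut replicate 3 and *Hes1* because WT replicate 1 lay above Tbx20EH1Mut replicate 2. *Notch1* was lower without overlap, at 30.4 ± 13.9 against 14.04 ± 2.95, as were *Jag1*, at 63.5 ± 7.36 against 46.7 ± 4.99, and *Heyl*, at 1.99 ± 0.667 against 0.815 ± 0.503. On this scale 38.0% of all genes tested did not overlap. Per 1000 cardiomyocyte marker counts, *Hey1* (2.05 ± 0.0720 against 3.98 ± 0.397) and *Hes1* (1.46 ± 0.280 against 3.06 ± 0.568) were higher without overlap and the other 8 genes overlapped, where 20.5% of all genes did not overlap.

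In the fit, scaling the libraries by the endothelial markers left *Hey1* called at a log2 fold change of 0.66 (edgeR, adjusted p = 0.00923) and *Hes1* at 0.78 (edgeR, adjusted p = 0.0163). It moved the median of all genes by -0.29, with 6.12% of genes called higher and 26.7% lower. Under it *Notch4* (0.42, edgeR, adjusted p = 0.0543) and *Dll4* (0.36, edgeR, adjusted p = 0.0657) were no longer called. *Notch1* passed as lower, at a log2 fold change of -1.11 (edgeR, adjusted p = 0.0105), and *Jag1* passed the adjusted p at -0.44 (0.0173). Scaling by the cardiomyocyte markers, with 7.75% of genes called higher and 3.85% lower, left only *Hey1* and *Hes1* called, while *Notch4* and *Dll4* kept log2 fold changes of 0.71 and 0.59 with larger standard errors (0.290 and 0.271) and adjusted p of 0.132 and 0.172 from edgeR. The rise of *Hey1* and *Hes1* thus passed under TMM and both marker scalings. *Notch4* and *Dll4* passed under TMM alone of these, with smaller folds under endothelial scaling and about the same folds with wider errors under cardiomyocyte scaling.

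**Figure D3:**
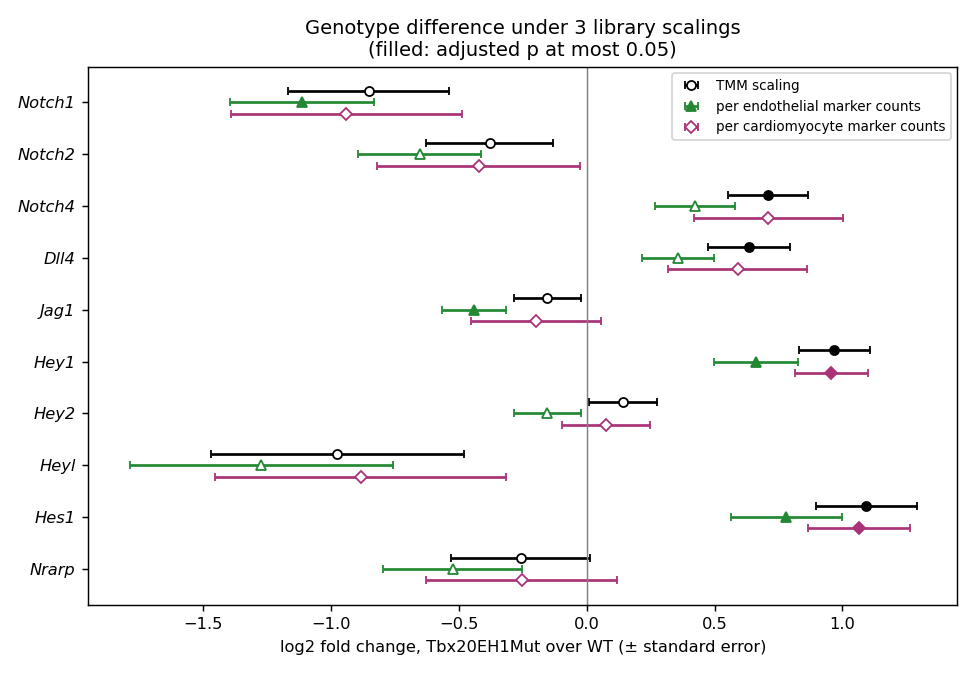
Log2 fold change of Tbx20EH1Mut over WT with its standard error (horizontal axis) for each Notch gene under TMM scaling (circles), scaling by endothelial markers (triangles) and scaling by cardiomyocyte markers (diamonds), filled where the adjusted p was at most 0.05. All 3 symbols are filled for Hey1 and Hes1, whereas for Notch4 and Dll4 the circle is filled alone.

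Other marker lists were read beside the members, against 12.5% of all genes tested called higher and 12.1% called lower. Ranges of CPM given for a list are sums over its genes, WT libraries first. Of 6 second heart field genes 4 were called higher (summed 43.0 to 75.9 CPM in WT, 210 to 361 CPM in Tbx20EH1Mut libraries), and of 8 foregut epithelium genes 5 were called higher (189.5 to 267.6 against 648.8 to 828.7 CPM). The foregut count was 3 without WT replicate 3, WT replicate 4 or Tbx20EH1Mut replicate 1, 2 or 4 and 2 with cardiomyocyte scaling, and it was 7 without WT replicate 2 or Tbx20EH1Mut replicate 3. *Krt8* and *Krt18* make up most of that sum, while *Foxa1*, *Foxa2*, *Cdh1*, *Epcam* and *Nkx2-1* overlapped between the genotypes. In WT replicate 2 *Epcam* was at 15.3 and *Foxa1* at 3.73 CPM, against at most 3.03 and 0.31 CPM in other WT libraries. *Tbx1* (12.7 against at most 2.1 CPM) and *Sox2* (6.66 against at most 0.15 CPM) were also high there. *Nkx2-1* was instead highest in WT replicate 4 among WT libraries. All 7 hypoxia genes were called higher (1457 to 1794 against 3009 to 3620 CPM), among them *Vegfa*, from 128 to 339 CPM. All 6 erythroid genes were called lower (1758 to 4596 against 319 to 1025 CPM), and 3 of 8 immediate early genes were called higher (198 to 219 against 269 to 367 CPM). Somite genes stayed at low levels (summed 2.05 to 4.26 against 3.56 to 13.5 CPM). Of 4 tested 1, *Tcf15*, was called higher, from a mean of 0.499 to 3.045 CPM. Neural tube genes were also low (summed 5.88 to 17.2 against 14.2 to 29.4 CPM). Of 4 tested 1, *Pax6*, was called higher, from a mean of 1.865 to 6.289 CPM. Of 4 neural crest genes tested 0 were called (summed 92.4 to 105.5 against 86.6 to 123 CPM). Without WT replicate 2 the neural tube count was 2 and the neural crest count 1, and the latter was also 1 without Tbx20EH1Mut replicate 3. None of the genes of these lists was at 0 in all libraries. Of 6 smooth muscle and pericyte genes 1, *Rgs5*, was called higher, and *Acta2*, *Tagln*, *Cnn1*, *Myh11* and *Pdgfrb* were not called (4193 to 4984 against 4801 to 7614 CPM for the list). That count of 1 was 0 without WT replicate 3, WT replicate 4 or Tbx20EH1Mut replicate 4, and 2 without WT replicate 1. Of 5 proepicardium genes 1, *Wt1*, was called higher, from 25.5 ± 8.16 to 76.7 ± 14.0 CPM. The summed level of that list overlapped, at 54.1 to 174 against 117 to 160 CPM. The part of these lists in the values of *Hey1*, *Hes1*, *Notch4* and *Dll4* was not tested. Genes known from arterial endothelium, several of which are known to respond to Notch, were called in both directions. *Gja4*, *Sox17* and *Cxcr4* were higher and *Gja5* and *Nrp1* lower among 6 (336 to 435 against 341 to 395.5 CPM in sum). The paper names *Gja5* among genes of cardiomyocyte function and growth, so its fall in these mixed hearts cannot be assigned to endothelium.

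Of 53 other genes of the pathway and Hes-like repressors, listed by role, 49 could be tested, 12 were called higher, 4 lower and 33 were not called. The shares are 12.5% and 12.1% over all genes, and the median log2 fold change of the list was 0.08. Of the 16 called genes, 7 kept their call in each of the 8 fits without 1 library, *Dtx3*, *Mfng*, *Maml3*, *Cir1*, *Bhlhe40* and *Bhlhe41* on the higher side and *Neurl1b* on the lower. With upper-quartile scaling 12 were higher and 2 lower, with endothelial scaling 6 and 8, and with cardiomyocyte scaling 5 and 1. The number called higher dropped to 7 without WT replicate 4, and the number called lower dropped to 1 without WT replicate 2 or without Tbx20EH1Mut replicate 4.

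Among the other receptors and ligands, *Notch3* had nearly equal means, at 34.8 ± 19.8 CPM in WT and 34.5 ± 14.2 CPM in Tbx20EH1Mut hearts (edgeR log2 fold change -0.01 at an adjusted p of 0.982). The ligands *Jag2* (log2 fold change -0.86, adjusted p = 0.108) and *Dll1* (-0.50, adjusted p = 0.0675) were not called. *Dlk1*, a Delta-like membrane protein without the receptor-binding domain of the classical ligands, had the highest level of this group per length (34.1 FPKM in Tbx20EH1Mut hearts) and was called higher, from 102 ± 22.9 to 193 ± 62.5 CPM (edgeR log2 fold change 0.92 at an adjusted p of 0.0198), but lost the call without WT replicate 3 or WT replicate 4. *Dll3*, *Dlk2* and *Dner* were not called.

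Neuralized and Mindbomb ubiquitin ligases drive uptake of the bound ligand, and Deltex proteins act on the receptor. *Mib1*, the main ligase of the heart, was at 94.0 ± 3.09 CPM in WT and 98.4 ± 3.31 CPM in Tbx20EH1Mut hearts and was not called (edgeR, adjusted p = 0.598). *Neurl1b* fell by 0.94 on the log2 scale, from 36.0 ± 3.53 to 18.8 ± 4.04 CPM (edgeR, adjusted p = 0.00284). *Dtx3* rose from 96.5 ± 9.60 to 195 ± 10.7 CPM (edgeR log2 fold change 1.02 at an adjusted p of 2.65e-04) and had the highest level of this group per length (37.5 FPKM in WT hearts). *Neurl1a* (0.56) and *Dtx3l* (0.79) were called higher but kept the call in 2 and 3 of the 8 fits without 1 library.

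Fringe enzymes add sugars to Notch that change which ligand it prefers. *Mfng*, the Fringe gene best known from endothelium, rose from 4.09 ± 0.409 to 9.61 ± 1.67 CPM (edgeR log2 fold change 1.23 at an adjusted p of 0.00122). *Rfng* passed the adjusted p (0.0174) at a log2 fold change of -0.49, just under the fold change threshold, and was level with *Poglut1* per length in WT hearts (8.23 ± 0.911 and 8.22 ± 0.231 FPKM), above the other enzymes of the group. *Lfng*, *Pofut1* and *Poglut1* were not called. Among the genes for cleavage of the receptor, *Psenen*, a small gamma-secretase subunit, had the highest level per length (38.7 FPKM in WT hearts). It was not called, at 49.3 ± 13.5 CPM in WT and 66.4 ± 10.9 CPM in Tbx20EH1Mut hearts (edgeR, adjusted p = 0.123), nor was the protease gene *Adam10* (120 ± 9.11 and 114 ± 17.5 CPM, edgeR, adjusted p = 0.716). The gamma-secretase subunit gene *Psen2* was called higher (log2 fold change 0.57, adjusted p = 0.0248), and *Aph1c*, another subunit gene, was called higher from 0.511 to 1.21 CPM (1.24, adjusted p = 0.0440). These calls were lost in 3 and 6 of the 8 fits without 1 library.

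In the nuclear complex, *Rbpj* itself was not called, at 37.2 ± 5.21 CPM in WT and 45.5 ± 6.50 CPM in Tbx20EH1Mut hearts (edgeR log2 fold change 0.29 at an adjusted p of 0.137). The coactivator gene *Maml3* rose from 10.6 ± 3.89 to 20.95 ± 2.37 CPM (edgeR log2 fold change 0.98 at an adjusted p of 0.0106). *Cir1*, which encodes a corepressor that binds Rbpj, rose from 19.5 ± 7.41 to 44.9 ± 15.5 CPM (1.21, edgeR, adjusted p = 0.0123). The corepressor gene *Spen* (log2 fold change -0.91, adjusted p = 0.0471) and the acetyltransferase gene *Kat2a* (-0.77, adjusted p = 0.0212) were called lower, and *Spen* kept the call in 2 of the 8 fits without 1 library. *Snw1*, which encodes a nuclear cofactor that binds Rbpj, had the highest level of the group per length (23.1 FPKM in WT hearts) and was not called, at 51.5 ± 14.6 and 31.7 ± 12.5 CPM (edgeR, adjusted p = 0.0974). Of the other Hes-like repressors, *Bhlhe40* rose most, from 13.0 ± 2.73 to 46.4 ± 6.92 CPM (1.84, edgeR, adjusted p = 1.45e-04), *Bhlhe41* rose from 12.7 ± 1.31 to 27.8 ± 5.39 CPM (1.13, edgeR, adjusted p = 0.00107), and *Hes6*, the highest of them per length (28.3 FPKM in WT hearts), from 51.2 ± 7.46 to 73.0 ± 3.89 CPM (0.51, edgeR, adjusted p = 0.0121). *Hes6* kept its call in 5 of the 8 fits without 1 library. *Bhlhe40* and *Bhlhe41* were listed as Hes-like repressors, and whether Notch had a part in their rise was not tested. All 7 hypoxia genes were called higher as well, and a link between them and the rise of *Bhlhe40* and *Bhlhe41* was not tested. *Hes7* was not called, *Hes3* and *Hes5* had too few counts to be tested, and *Hes2* and *Helt* were at 0 in all libraries.

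**Figure D4:**
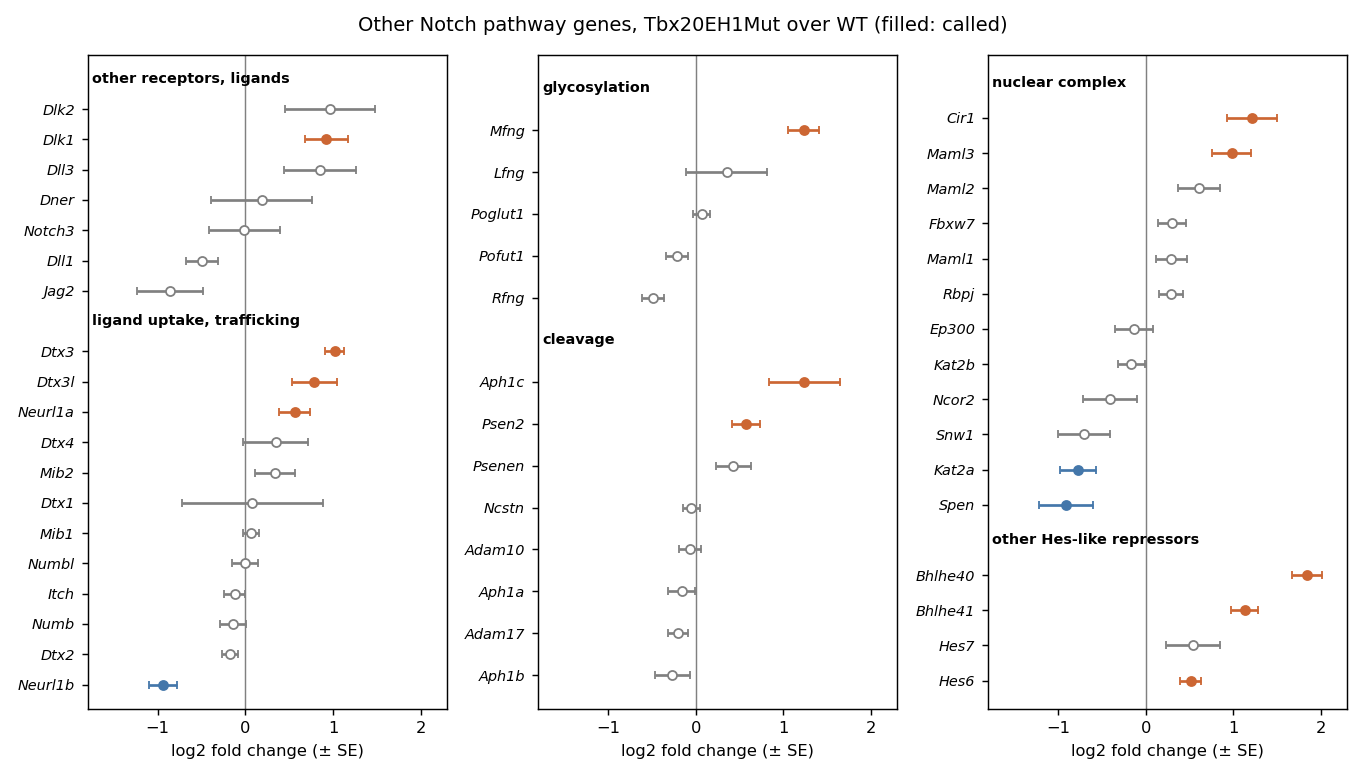
Log2 fold change of Tbx20EH1Mut over WT with its standard error (horizontal axes) for other Notch pathway genes tested, in 6 groups by role, filled where called (higher in orange, lower in blue). Most genes are open symbols near 0, and the Hes-like repressor Bhlhe40 lies farthest to the right, at 1.84.

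The TLE genes, from the corepressor family that both Tbx20 and Hes proteins recruit, were mostly not called. The paper cites direct binding to Tbx20 for TLE1 and TLE3. *Tle5*, a short family member and the highest of 5 per length (200.1 FPKM in WT hearts), was at 282 ± 47.1 CPM in WT and 273.5 ± 10.8 CPM in Tbx20EH1Mut hearts and had an adjusted p of 0.818 from edgeR. *Tle4* was called higher, from 20.3 ± 3.33 to 30.8 ± 2.62 CPM (edgeR log2 fold change 0.60 at an adjusted p of 0.00975), under TMM scaling but not under either marker scaling. *Tle1* (adjusted p = 0.424), *Tle2* (0.119) and *Tle3* (0.105) were not called. With endothelial scaling *Tle2* alone of the 5 was called, as lower (log2 fold change -0.65, adjusted p = 0.00957).

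Of 9 genes known to lie downstream of Notch in endocardium and myocardium, 1 was called higher and 2 lower, beside 12.5% and 12.1% of all genes tested. The list does not separate genes that Notch switches on from genes that it holds down. These counts therefore give no direction of Notch output. The count called higher was 2 without WT replicate 2 or Tbx20EH1Mut replicate 1, 2 or 4, with upper-quartile scaling and with the offset on exon length. The count called lower was 3 without WT replicate 1, with DESeq2, with endothelial scaling and with the offset on GC content. *Snai2*, a repressor active when endocardial cells turn into cushion mesenchyme, rose from 3.31 ± 1.55 to 7.98 ± 0.606 CPM (edgeR log2 fold change 1.28 at an adjusted p of 0.0106). *Wnt4*, an endocardial signal to the myocardium, fell from 21.5 ± 3.82 to 11.5 ± 1.81 CPM (-0.91, edgeR, adjusted p = 0.00386), and *Bmp2*, the myocardial signal for cushion formation, was also called lower (-1.26). *Efnb2*, an arterial ephrin that Dll4 and Notch signalling is known to switch on, was at 88.6 ± 7.95 and 124 ± 5.29 CPM. Its libraries did not overlap, and its log2 fold change of 0.49 (edgeR, adjusted p = 0.00679) was just under the fold change threshold. *Nrg1*, the trabeculation signal, was not called (-0.51, edgeR, adjusted p = 0.0563), nor were *Tgfb2*, the highest of this list per length in WT hearts (18.8 FPKM), *Bmp10*, *Snai1* and *Tbx2*.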

How the data were processed

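Poly-A selected RNA was sequenced in 8 libraries, and the authors deposited 1 table of raw counts per library, whole numbers of reads per Ensembl gene, not normalized. The submitters' processing notes name Trimmomatic 0.36, STAR 2.5.2b and GRCm38 (mm10). The counting tool, strand setting and annotation release are not given in the sources used here. Of the 49315 genes, 48970 were matched to a symbol by identifier, 91.4% of them with the span of GENCODE M21. No pair of libraries was identical, and every row names a gene.

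The fit used edgeR 4.0.16 in R 4.3.3 (filterByExpr, TMM, glmQLFit and glmQLFTest, genotype as the only term, Benjamini-Hochberg adjustment). The steps were tested on simulated data. Of 100 genes changed by an absolute log2 fold change of 1, edgeR recovered 66%, DESeq2 81% and limma-voom 65%. Of 100 genes changed by 2, they recovered 88%, 92% and 87%. Genes that were not changed made up 3.75% of edgeR calls, 23.1% of DESeq2 calls and 3.18% of limma-voom calls. A gene that was not called can therefore have changed, and DESeq2 calls are the least certain of these. Log2 CPM used a prior count of 1, and permutation tests ran over 70 arrangements. FPKM used the summed exon length of the tables. Alternatives were RLE and upper-quartile scaling, DESeq2 1.42.0, limma-voom (limma 3.58.1), both filters on low counts, a replicate block, scaling by marker sums, other fold thresholds and leaving out each library, and offsets on exon length and GC content (loess span 0.3) were added after seeing the data. The text names all 10 Notch genes, and of each other pathway list the genes called and the one with the highest level per length; other genes named were chosen after their values were seen. One gene of the other pathway lists is counted but not reported here. The genes and lists were chosen with earlier results of these data known. Sequences are from RefSeq. Figures were drawn with matplotlib 3.10.9.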

Additional observations from a re-analysis of the deposited data

Results flagged for a closer look

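In the 20 groups of 4 libraries formed by the 10 Notch genes, 2 held a library far from the other 3 by Dixon's ratio of gap to range, where chance gives about 1 in 20. *Dll4* was at 10.86 CPM in WT replicate 1, with the nearest WT library at 17.04 CPM and a ratio of 0.832. *Heyl* was at 3.095 CPM in WT replicate 1, with the nearest WT library at 2.007 CPM and a ratio of 0.904. Both ratios are above the 95% critical value for 4 samples, and both values are in the same library.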

How the results depend on the processing

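*Hey1* and *Hes1* were called higher in each of the 19 alternative fits run, with log2 fold changes from 0.66 to 1.05 and from 0.78 to 1.27. *Notch4* and *Dll4* lost significance only with the marker scalings, at 0.42 and 0.36 with endothelial scaling and, with wider errors, at 0.71 and 0.59 with cardiomyocyte scaling. The number of the 10 Notch genes called higher (4) was 2 with endothelial scaling, 2 with cardiomyocyte scaling and 1 with a fold threshold of at least 1, and 3 to 4 without 1 library (3 without WT replicate 1). The number called lower (0) was 1, *Notch1*, with DESeq2, with no filter, with endothelial scaling and with offsets on exon length or GC content, and 0 to 1 without 1 library (1 without WT replicate 1). At an unadjusted p under 0.05, 1 of the 10 was lower in edgeR, again *Notch1*. *Hey2* reversed with endothelial scaling, at -0.15 (adjusted p = 0.379 from edgeR). *Heyl* was not tested when at least 10 counts were required in every library. Of other pathway genes, the number called higher (12) was 6 with endothelial scaling, 5 with cardiomyocyte scaling and 6 with a fold threshold of at least 1, and 7 to 15 without 1 library. The number called lower (4) was 2 with upper-quartile scaling, 8 with endothelial scaling, 1 with cardiomyocyte scaling and 0 with a fold threshold of at least 1, and 1 to 6 without 1 library. Over all genes, 2148 were called higher and 2070 lower. These counts were 1051 and 4582 with endothelial scaling, 1330 and 660 with cardiomyocyte scaling, and 1145 and 714 with a fold threshold of at least 1. With upper-quartile scaling 2516 were higher and 1566 lower. Without 1 library they ranged from 1375 to 2948 and from 1376 to 2719. Same-numbered libraries of the genotypes did not consistently deviate together (correlations of -0.26, 0.33, 0.052 and 0.059 across genes). WT replicate 2 and Tbx20EH1Mut replicate 1 had a higher correlation, of 0.397. No pairing by number was seen, but deviations shared across numbers could hide one, so the check cannot exclude it. With the replicate block, 4 Notch genes were higher and 0 lower, 9 and 3 other pathway genes, and 1910 and 1771 genes in all. The cause of these shifts was not tested. Depth limits *Heyl* most, with 7 to 102 counts per library.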
